A study of Mus musculus with 8 samples.

Results

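Collagen chains are modified and folded inside the endoplasmic reticulum before they are secreted, and 10 genes that carry out these steps were examined in differentiating mouse cells with and without functional Tbx1. They were chosen by name, and are the lysyl hydroxylases Plod1, Plod2 and Plod3, the galactosyltransferase Colgalt1, the prolyl 4-hydroxylase alpha subunits P4ha1 and P4ha2, the prolyl 3-hydroxylase P3h1 with its partner Crtap, and the folding factors Serpinh1 and Fkbp10. All 10 symbols had a row among the 55487 gene identifiers of the deposited table. All 10 also passed the filter on low counts, as part of 13280 genes tested.

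The cells were E14-Tg2a, a mouse embryonic stem cell line, in 4 libraries of the parental line and 4 of line 4D, which is labelled Tbx1-/-. The T-box factor made from this gene acts in the developing pharynx and outflow tract, and the gene lies in the region lost in DiGeorge syndrome. All cultures were grown in serum-free medium towards precardiac mesoderm and taken on day 6. The series title refers to minoxidil, a drug known to lower lysyl hydroxylase expression, but no library analysed here is labelled as treated with it. Since all mutant libraries come from 1 line, what the lost gene does and what is peculiar to line 4D cannot be told apart. The labels call the libraries biological replicates without naming the separate cultures, and p-values measure the spread between these libraries.

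Procollagen is assembled co-translationally. Prolyl 4-hydroxylation stabilises the triple helix, and the enzyme needs iron, 2-oxoglutarate, oxygen and ascorbate, as lysyl hydroxylases do. Lysyl hydroxylation provides sites for sugars and for the crosslinks that later make collagen fibres stiff. Chaperones such as Serpinh1, also called HSP47, bind the folded helix and accompany it out of the endoplasmic reticulum. P4ha1 and Plod2 are textbook targets of the hypoxia-inducible factor HIF, which recognises a short core sequence in regulatory DNA.

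The promoters of the pair of prolyl 4-hydroxylase genes are shown because these were the paralogues with estimates furthest apart. Both windows run from 250 bases before to 50 bases after the start of the gene in RefSeq (GRCm38.p6, plus strand), at chr10:59323046-59323345 for P4ha1 and chr11:54100674-54100973 for P4ha2. Capitals mark the letters ACGTG, the core that HIF recognises, read on either strand. These letters also occur inside the longer element CACGTG bound by other factors.
P4ha1 promoter: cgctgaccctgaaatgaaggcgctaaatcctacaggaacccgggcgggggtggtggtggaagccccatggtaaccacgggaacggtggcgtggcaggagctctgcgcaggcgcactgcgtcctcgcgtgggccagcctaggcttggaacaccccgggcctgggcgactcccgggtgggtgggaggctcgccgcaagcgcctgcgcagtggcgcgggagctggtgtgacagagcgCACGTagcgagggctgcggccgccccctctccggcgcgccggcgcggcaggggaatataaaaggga
P4ha2 promoter: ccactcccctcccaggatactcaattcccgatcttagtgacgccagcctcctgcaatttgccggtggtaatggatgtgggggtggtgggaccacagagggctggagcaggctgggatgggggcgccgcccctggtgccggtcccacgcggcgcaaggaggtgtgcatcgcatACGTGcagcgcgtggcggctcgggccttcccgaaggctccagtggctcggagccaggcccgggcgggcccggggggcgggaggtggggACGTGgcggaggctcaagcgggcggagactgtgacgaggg
P4ha1 held 1 match and P4ha2 held 2. Promoter windows were found for 8 of the 10 genes, and Plod2 and Fkbp10 had none in the table used. At least 1 ACGTG was present in a window of 5 of these 8 genes (Plod3, P4ha1, P4ha2, P3h1 and Serpinh1), against 21.8% of all genes with a window and 19.6% of 32817 single windows of 300 bases. Exact forms of the endoplasmic reticulum stress element and the heat shock element, searched on both strands, were in 0 of the 8 and in 0.119% and 0.603% of all windows. A match describes letters only.

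Depth ranged from 3803561 to 6293907 counts per library. QuantSeq counts the 3′ end of each transcript, so levels of different genes were compared as CPM (counts scaled to a common library size, adjusted with trimmed means of M values) without division by length. How fully the 3′ end of each gene was captured was not measured, so an order of levels between genes describes counts only. Tbx1 had 39, 65, 38 and 22 counts in parental libraries 1 to 4 and 3, 0, 1 and 0 in mutant libraries 1 to 4, so the targeted transcript followed the labels. All 12 markers of precardiac mesoderm were above the filter, and 1 of them, Gata6, rose. Their sum was 1600 to 2090 CPM over parental libraries and 1670 to 1970 CPM over mutant ones, but single markers shifted in opposite directions. Every mutant library was below every parental one for Hand1 (means 615 parental, 469 mutant CPM) and Isl1 (74.1 and 47.0). Every mutant library was above them for Hand2 (351 and 461 CPM) and Gata6 (129 and 213). Only Gata6 passed an adjusted p of 0.05. An unadjusted edgeR p under 0.05 was reached by 7 of the 12, and 7 estimates were negative (median log2 fold change -0.28). Mutant library 4, which had the fewest counts (3803561), stood apart, and the part of depth in this was not tested. Its correlations across genes with the other 7 libraries were 0.858 to 0.881, against 0.92 to 0.945 among those 7, and results for the 10 genes are therefore also given without it.

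None of the 10 genes differed between the lines past an adjusted p of 0.05 (edgeR quasi-likelihood test, Benjamini-Hochberg adjustment over all genes tested). Over all genes 1.42% passed, 0.745% as higher and 0.67% as lower in the mutant line. Before adjustment, 2 of 10 genes (Plod2 and P4ha1, both with negative estimates) had a p under 0.05, against 11.9% of all genes. DESeq2 and limma-voom also called 0 of 10, against 3.05% and 1.9% of all genes. The parental and mutant libraries overlapped for every one of the 10 genes, while 7.52% of all genes had no overlap (3.49% higher and 4.04% lower in the mutant line). Estimates were positive for 7 and negative for 3, with a median log2 fold change (mutant minus parental) of 0.10 against 0.001 over all genes.

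**Figure D1:**
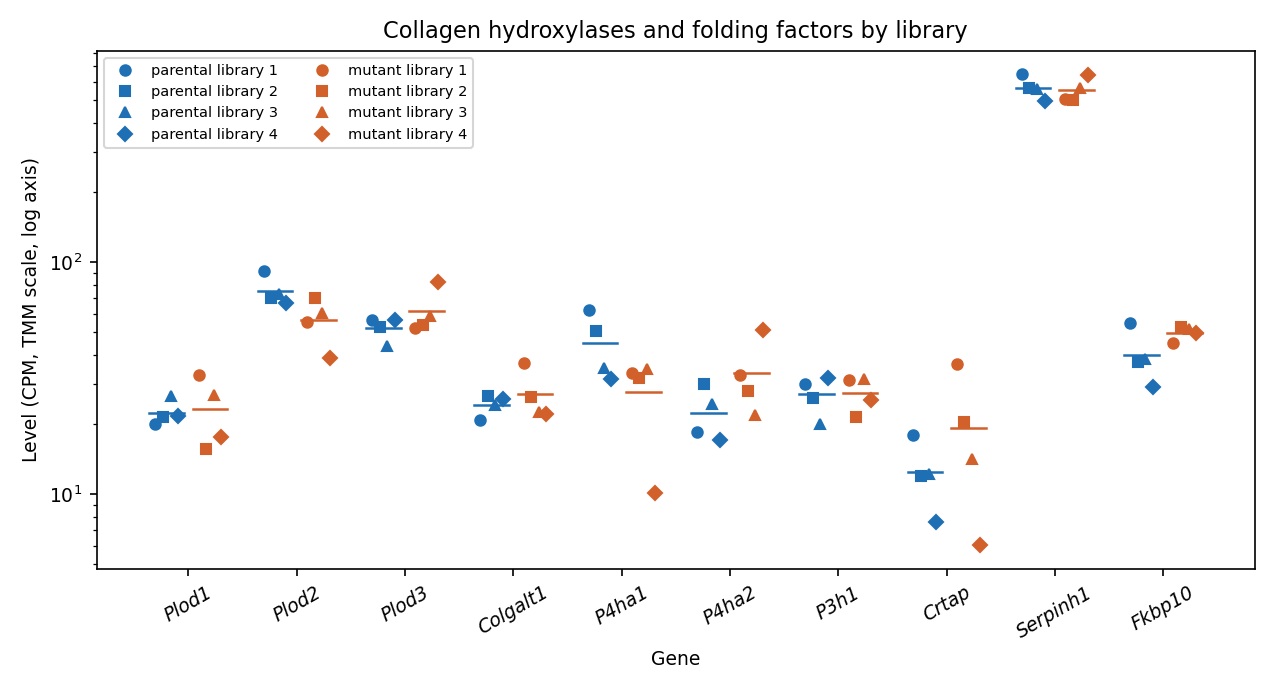
Level of each gene in each library (CPM on a log axis); points are libraries, coloured by line and shaped by library number, and short lines are means. Serpinh1 lies far above the other 9 genes, and the colours overlap for all 10.

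In parental cells the order of levels was led by Serpinh1, the collagen-specific chaperone, at 566 ± 62.3 CPM (SD, n = 4), higher than 98.6% of all tested genes. Plod2 followed at 75.4 ± 11.03 CPM, then Plod3 at 52.2 ± 6.19, P4ha1 at 44.8 ± 14.2 and Fkbp10 at 39.9 ± 10.8 CPM. The remaining 5 were at 26.9 ± 5.12 (P3h1), 24.4 ± 2.49 (Colgalt1), 22.5 ± 2.84 (Plod1), 22.5 ± 5.84 (P4ha2) and 12.5 ± 4.27 CPM (Crtap). Libraries of Serpinh1 did not overlap those of any other gene, and Plod2 stayed above Plod3 in every parental library. From Plod3 down to Fkbp10, and again from P3h1 down to P4ha2, neighbours in the order differed by less than the larger of their SDs. Serpinh1 alone made up 63.2% to 65.2% of the summed CPM of the 10 genes in parental libraries and 58.6% to 67.8% in mutant libraries. The sum was 887 ± 98.95 CPM in the parental line and 878 ± 51.0 CPM in the mutant line.

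Lysyl hydroxylases did not move as a group. Plod2 (ENSMUSG00000032374.14, chromosome 9, 92542223 to 92608428, plus strand, GRCm38) hydroxylates lysines of the collagen telopeptides, the sites from which crosslinks form. Its level was 91.5, 70.2, 73.1 and 66.8 CPM in parental libraries 1 to 4 and 55.4, 70.4, 60.5 and 38.8 CPM in mutant libraries 1 to 4. The lowest 3 values were all mutant, and mutant library 2 lay within the parental range. The log2 fold change was -0.42 ± 0.18 (SE), with an interval of -0.79 to -0.05 and an edgeR adjusted p of 0.346. Intervals here and below are 95% intervals of one gene, before any adjustment. Without mutant library 4 the estimate was -0.28.

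Plod1 (ENSMUSG00000019055.15, chromosome 4, 147909753 to 147936767, minus strand) hydroxylates lysines within the helix. Levels were 20.2, 21.5, 26.7 and 21.7 CPM in parental libraries and 32.8, 15.7, 26.9 and 17.6 CPM in mutant libraries. The mutant libraries held both the highest and the lowest value, with an SD of 8.02 CPM against 2.84 in parental libraries. Plod1 had a log2 fold change of 0.05 ± 0.26 and an interval of -0.49 to 0.59. Its sign depended on single libraries: the estimate was -0.17 without mutant library 1.

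Plod3 (ENSMUSG00000004846.10, chromosome 5, 136987019 to 136996648, plus strand) combines lysyl hydroxylase with glycosyltransferase activity. It was at 56.4, 52.4, 43.4 and 56.7 CPM in parental libraries and at 52.2, 53.8, 58.9 and 82.5 CPM in mutant libraries. Mutant libraries 3 and 4 lay above the parental range, library 4 by far the more. The log2 fold change of 0.24 ± 0.18 (interval -0.13 to 0.61) became 0.07 without that library. Colgalt1 (ENSMUSG00000034807.9, chromosome 8, 71610998 to 71624911, plus strand) attaches galactose to hydroxylysine. It had 20.9 to 26.6 CPM in parental libraries and 37.0, 26.4, 22.7 and 22.3 CPM in mutant libraries 1 to 4, where mutant library 1 was above all others. Its log2 fold change was 0.16 ± 0.23, with an interval of -0.32 to 0.63, and was -0.04 without mutant library 1.

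The catalytic subunits of prolyl 4-hydroxylase had estimates of opposite sign. P4ha1 (ENSMUSG00000019916.14, chromosome 10, 59323296 to 59373304, plus strand) encodes the main alpha subunit in most cells. Its level was 62.2, 50.4, 35.1 and 31.4 CPM in parental libraries 1 to 4 and 33.4, 31.6, 34.7 and 10.2 CPM in mutant libraries 1 to 4. Mutant libraries 1 to 3 lay within the range of the parental ones, and only mutant library 4, with 37 counts, lay below it. The log2 fold change of P4ha1 was -0.69 ± 0.30 (SE), with an interval of -1.32 to -0.06 and an edgeR adjusted p of 0.358. Without mutant library 4 the estimate was -0.43. P4ha2 (ENSMUSG00000018906.14, chromosome 11, 54100095 to 54131665, plus strand) encodes the alternative alpha subunit. It was at 18.6, 29.8, 24.6 and 17.1 CPM in parental libraries and at 32.6, 27.9, 21.98 and 50.9 CPM in mutant libraries. The highest value was again that of mutant library 4. Its log2 fold change was 0.56 ± 0.27, with an interval from 0.00 to 1.11 and an edgeR adjusted p of 0.419, and it was 0.29 without that library.

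Prolyl 3-hydroxylase works as a complex, in which P3h1 is the enzyme and Crtap a non-catalytic partner. P3h1 (ENSMUSG00000028641.16, chromosome 4, 119232915 to 119248975, plus strand) ranged from 20.1 to 31.6 CPM over parental libraries and from 21.6 to 31.4 CPM over mutant ones, nearly the same range. Its log2 fold change was 0.03 ± 0.22, with an interval of -0.43 to 0.50. Crtap (ENSMUSG00000032431.6, chromosome 9, 114375134 to 114390675, minus strand) was the most variable of the 10 genes. It had 18, 12.0, 12.3 and 7.59 CPM in parental libraries and 36.3, 20.5, 14.2 and 6.05 CPM in mutant libraries. Mutant library 1 was the highest and mutant library 4 the lowest of all 8. For Crtap the log2 fold change was 0.63 ± 0.41 (interval -0.22 to 1.49). The estimate was 0.92 without mutant library 4 and 0.12 without mutant library 1, so it moved by over 1.5 times with single libraries.

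Among the folding factors, Serpinh1 (ENSMUSG00000070436.12, chromosome 7, 99345376 to 99353239, minus strand) had the narrowest interval of the 10 genes. Levels were 646, 565, 559 and 494 CPM in parental libraries and 505, 502, 563 and 640 CPM in mutant libraries, with 2303 to 3554 counts each. The log2 fold change of -0.04 ± 0.11 had an interval of -0.26 to 0.19, which corresponds to between 0.835 and 1.14 times the parental level. Fkbp10 (ENSMUSG00000001555.10, chromosome 11, 100415697 to 100424824, plus strand), a peptidyl-prolyl isomerase that assists telopeptide lysyl hydroxylation, was at 54.9, 37.3, 38.5 and 29.1 CPM in parental libraries. In mutant libraries it was at 44.9, 52.7, 51.4 and 49.8 CPM. These lay above 3 of the 4 parental libraries and below parental library 1. Fkbp10 had a log2 fold change of 0.31 ± 0.19 (interval -0.09 to 0.72), which was 0.50 without parental library 1 and 0.19 without parental library 4. In the reference annotation Plod3, Fkbp10 and Colgalt1 overlap protein-coding genes on the other strand, Znhit1, Nt5c3b and Unc13a, so their counts depend on the strand-specific counting that the table's name states.

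**Figure D2:**
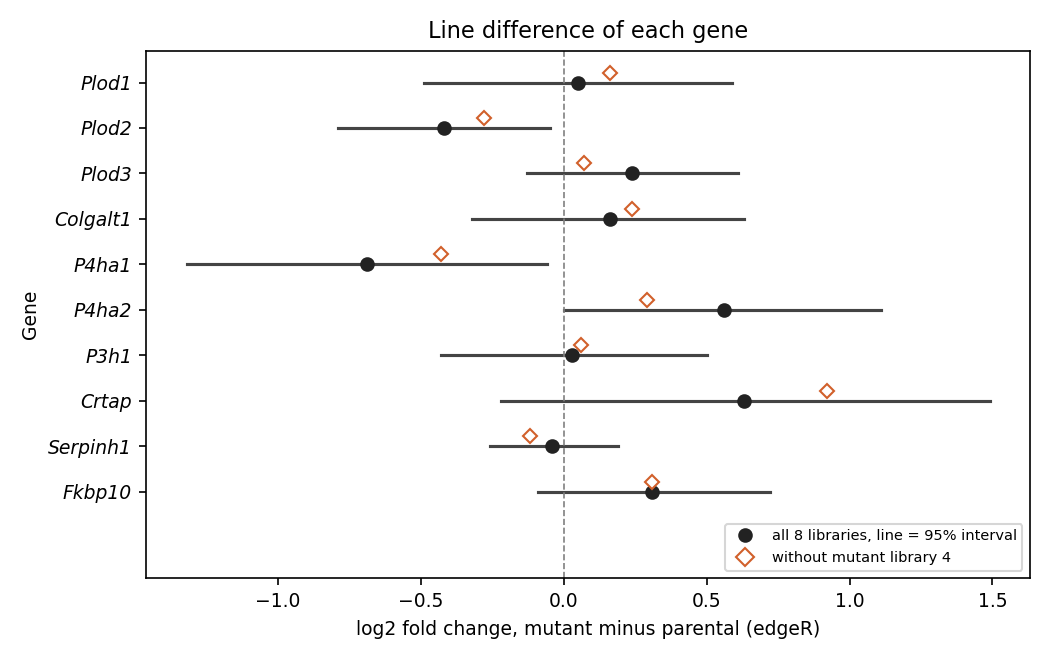
Log2 fold change of each gene (mutant minus parental, edgeR); filled points use all 8 libraries with their 95% intervals, and open diamonds leave out mutant library 4. The interval of Serpinh1 is the narrowest and that of Crtap the widest, and the estimates of P4ha1, P4ha2, Plod2 and Plod3 are nearer 0 without mutant library 4.

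Ratios between related genes within a library were compared next, because a ratio does not depend on how libraries are scaled. Each of 6 ratios was tested between the lines with an exact permutation test (two-sided), in which the 70 ways to assign libraries allow no p below 0.0286. No ratio passed, and the smallest p was 0.0571 before and 0.114 after adjustment over the 6. P4ha1 had 3.34, 1.69, 1.43 and 1.83 counts per P4ha2 count in parental libraries and 1.03, 1.13, 1.58 and 0.202 in mutant libraries. P4ha1 thus outnumbered P4ha2 in 7 of the 8 libraries, and mutant library 4 had about 5 P4ha2 counts for each P4ha1 count. The difference of the log2 ratio was -1.33 (exact permutation p = 0.0571, n = 4 per line), and -0.68 without mutant library 4. Without mutant library 3, the only mutant library within the parental range, the difference was -1.67. The exact permutation p was then 0.0286 (adjusted 0.171). That is the lowest value possible, and leaving out the overlapping library fixes it in advance.

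The 2 other ratios with the same p involved the lysyl hydroxylases and the folding factors. Plod2 had 1.62, 1.34, 1.68 and 1.18 counts per Plod3 count in parental libraries and 1.06, 1.31, 1.03 and 0.471 in mutant libraries, a log2 difference of -0.67 that was -0.36 without mutant library 4. The lines overlapped through mutant library 2, and without it the difference was -0.85. The exact permutation p of 0.0286 (adjusted 0.0857) is again the lowest possible, fixed by leaving out the library that overlapped. Fkbp10 had 0.0851, 0.0662, 0.0689 and 0.059 counts per Serpinh1 count in parental libraries and 0.0891, 0.105, 0.0914 and 0.0779 in mutant libraries, a log2 difference of 0.39. Here parental library 1 lay within the mutant range. The ratios Plod2/Plod1, Plod1/Plod3 and P3h1/Crtap had differences of -0.43, -0.24 and -0.38 with exact permutation p of 0.257, 0.543 and 0.6. Single libraries moved them by over 1.5 times. Plod2/Plod1 was at -0.25 without mutant library 1 and -0.72 without mutant library 2, the only mutant library within the parental range. For the latter the exact permutation p of 0.0286 (adjusted 0.0857) is fixed in the same way. Plod1/Plod3 ranged from -0.5 without mutant library 1 to 0.02 without mutant library 4, and P3h1/Crtap from -0.81 without mutant library 4 to -0.06 without mutant library 1.

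**Figure D3:**
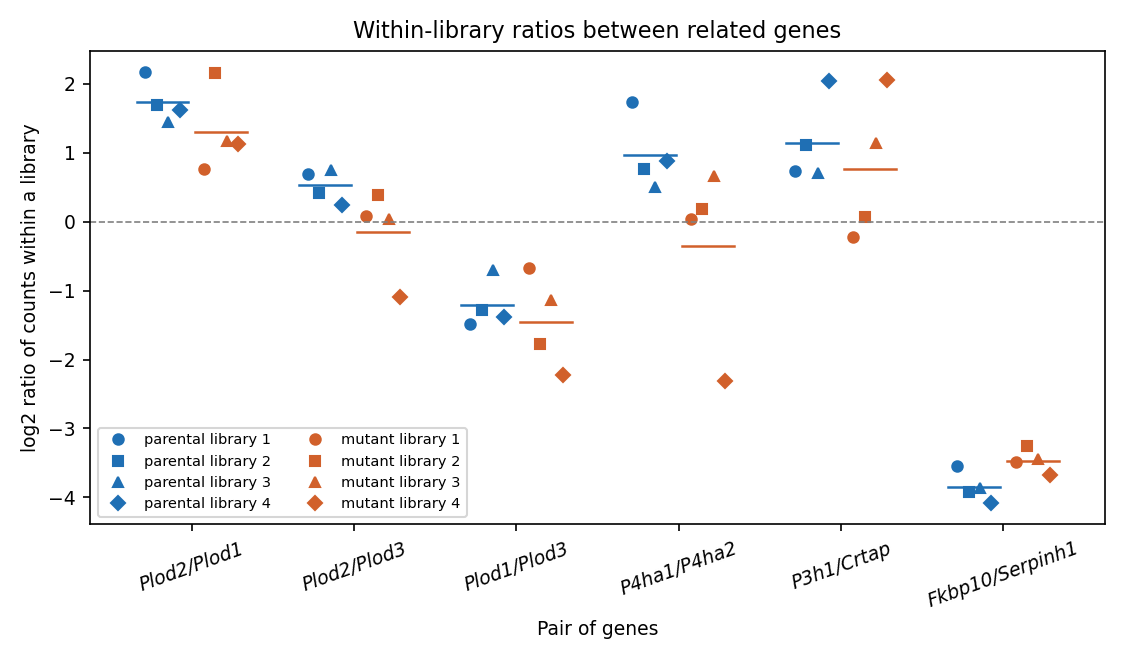
Log2 ratio of counts between related genes within each library; points are libraries, coloured by line and shaped by library number, and short lines are means. All 6 ratios overlap between the lines, and P4ha1/P4ha2 in mutant library 4 is far below the other libraries.

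The levels of P4ha1 followed heart muscle genes from library to library. Of 9026 genes with a mean of at least 10 CPM, the pair with the highest Pearson correlation with P4ha1 over the 8 libraries were Ttn, encoding the sarcomere protein titin (r = 0.998), and Myl7, encoding an atrial myosin light chain (r = 0.995). These are descriptions, since the genes were picked as the most alike of all and share the depth of each library. Ttn was at 1178, 655, 300 and 247 CPM in parental libraries and 249, 258, 291 and 22.8 CPM in mutant libraries. The order of the parental libraries was that of P4ha1, and mutant library 4 was lowest for both.

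The summed level of 10 cardiomyocyte markers was 3600, 1930, 869 and 625 CPM in parental libraries and 820, 784, 951 and 122 CPM in mutant libraries. None of the 10 was at 0 in all libraries, 9 were tested, and 0 of 9 passed the threshold, with estimates below 0 for all 9. The markers thus varied more among parental libraries than between parental libraries 3 and 4 and mutant libraries 1 to 3, and P4ha1 did the same. P4ha1 and the log2 marker sum had r = 0.987 over 8 libraries and 0.991 over the 7 without mutant library 4, with 2 parental libraries far above the rest. With the summed level of 29 glycolysis and hypoxia genes P4ha1 had r = 0.728 over 8 libraries, 0.571 without mutant library 4 and 0.754 over the 4 parental libraries. With the sum of mesenchyme markers it had r = -0.371 over 8 libraries and 0.934 over the parental ones. Vim, the largest part of that sum, fell from 1099 to 830 CPM over parental libraries 1 to 4, and Postn from 31.6 to 5.06 CPM. Twist1 and Prrx1 rose from 70.0 to 115 CPM and from 30.6 to 86.2 CPM over the same libraries. Others of the 10 hydroxylases and folding factors also followed the cardiomyocyte sum in some libraries. For Serpinh1 r was 0.0081 over 8 libraries, 0.894 without mutant library 4 and 0.923 over the parental libraries, where Fkbp10 and Crtap had 0.891 and 0.886. Whether the share of heart muscle cells has a part in these levels was not tested, and in bulk RNA fewer cells of a type and less RNA per cell cannot be told apart.

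**Figure D4:**
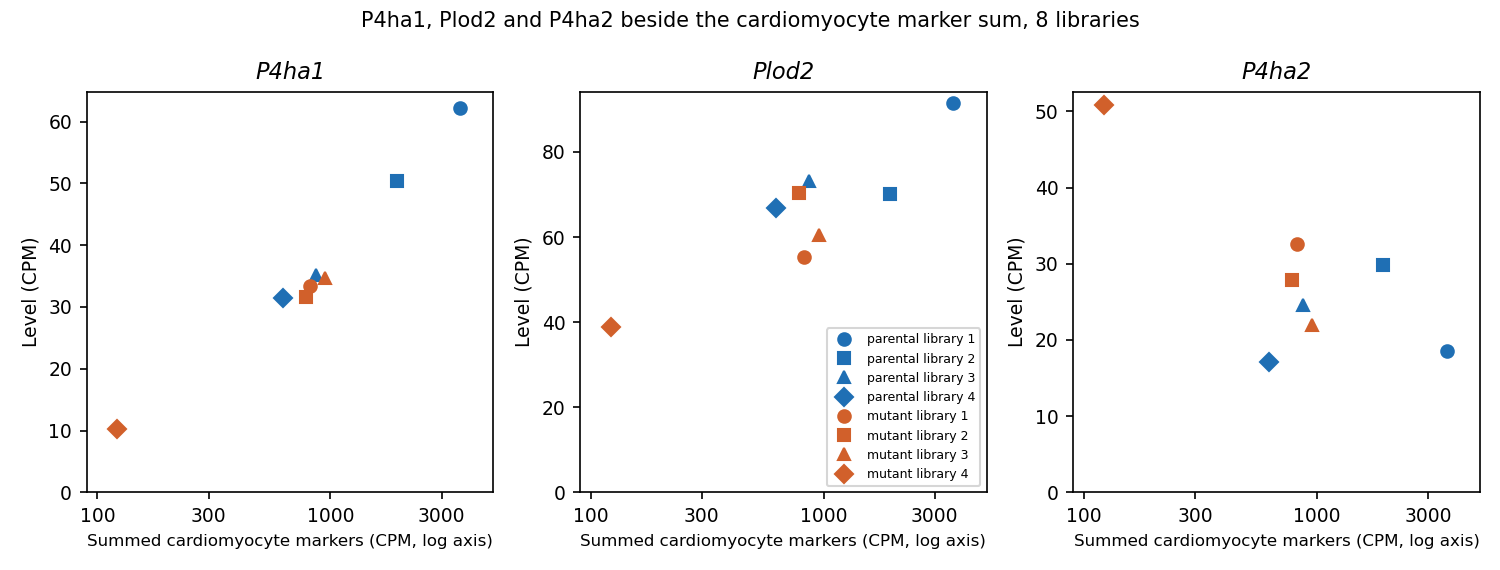
Level of P4ha1, Plod2 and P4ha2 (CPM) against the summed level of 10 cardiomyocyte markers (CPM, log axis); each point is 1 of 8 libraries. P4ha1 rises with the marker sum from 10.2 CPM in mutant library 4 to 62.2 CPM in parental library 1. P4ha2 does not rise with it (r of log2 values -0.67 over 8 libraries and -0.139 without mutant library 4).

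Plod2 had a related profile. Its most similar genes were Ndufs6, a subunit of respiratory complex I (r = 0.982), and Ero1l, the oxidase that recharges protein disulfide isomerase in the endoplasmic reticulum (r = 0.974). With P4ha1 its r was 0.915 over 8 libraries and 0.723 without mutant library 4. Its r with the cardiomyocyte marker sum was 0.904 over 8 libraries, 0.723 without mutant library 4 and 0.825 over the parental libraries. With the summed glycolysis and hypoxia list it was 0.86, 0.82 and 0.574 over the same libraries. That list was at 4050 to 4940 CPM in parental libraries and at 2700, 3780, 2620 and 2320 CPM in mutant libraries. Mutant library 2 was the highest of the mutant libraries for this sum and for Plod2. P4ha2 had its highest similarity with Bmf, a pro-apoptotic BH3-only gene (r = 0.989), and Slc20a2, a phosphate transporter gene (r = 0.97). It ran against P4ha1 over all libraries (r = -0.724) but not without mutant library 4 (r = -0.16).

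Plod1, Crtap and Colgalt1 shared a maximum in mutant library 1. In that library the summed level of 10 endothelial markers was also highest, at 1300 CPM against 714 to 750 CPM in the other mutant libraries and 591 to 931 CPM in parental libraries. All 10 endothelial markers were tested, 0 passed and none was at 0. The sum of 12 mesenchyme and fibroblast markers was highest there too, at 2300 CPM against 1560 to 1830 CPM in the other mutant and 1290 to 1470 CPM in parental libraries. Among these markers Twist1, Prrx1, Tcf21, Fbln1 and Mfap4 were instead highest in mutant library 4, and Pdgfra and Thy1 in parental library 3. Vim made up 1620 CPM of the sum in mutant library 1, where Pdgfrb, Postn, Dcn and Lum were also highest. Of the 10 mesenchyme markers tested, 2 rose (Postn and Twist1). Blood markers had their highest sum in the same library, at 1030 CPM against 731 to 856 CPM in the other mutant and 160 to 217 CPM in parental libraries. All 10 were tested, none was at 0, and 4 rose (the globin genes Hba-x, Hbb-bh1, Hbb-y and Hba-a1). The part of these cell types in the levels of Plod1, Crtap and Colgalt1 was not tested.

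The substrates of these enzymes are the collagen chains. Of 32 collagen chain genes listed, 26 were tested, and 4 of them rose while 0 fell, with a median log2 fold change of 0.27. The other 22 did not pass, and the difference from 0 of 10 was not tested. The 4 were Col1a2, Col3a1, Col5a1 and Col14a1, which encode fibril-forming chains and, for Col14a1, a fibril-associated collagen. Col1a2 and Col3a1 had log2 fold changes of 0.93 ± 0.14 and 2.29 ± 0.21 (edgeR adjusted p of 0.00108 and 6.26e-06), whereas Col1a1 was at 0.11 ± 0.17. Summed over the list, collagen chains had 3.83, 3.71, 2.95 and 3.25 counts per Serpinh1 count in parental libraries. In mutant libraries they had 6.66, 5.37, 4.87 and 4.95, all above the parental values. For Col3a1 alone the ratio to Serpinh1 was 0.151 ± 0.0304 in parental and 0.776 ± 0.253 in mutant libraries (SD, n = 4), while for Col1a1 it was 0.433 ± 0.0914 and 0.489 ± 0.0937. These ratios were chosen after the rise of the collagens was known and are given without a test.

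Other genes of the same steps gave no calls in the edgeR test. Among 5 tested of 7 further collagen-modifying enzymes, 0 passed and 1 had an unadjusted p under 0.05, with a median log2 fold change of -0.004. That gene was P3h4, a non-catalytic relative of Crtap that forms a complex with lysyl hydroxylase, at 38.8 ± 13.98 CPM in the parental and 57.4 ± 8.93 CPM in the mutant line. P4hb, the disulfide isomerase that is the beta subunit of prolyl 4-hydroxylase, was at 307 ± 24.96 and 324 ± 21.7 CPM (log2 fold change 0.08 ± 0.10). Of general folding factors of the endoplasmic reticulum, 19 of 20 were tested and 0 passed, with a median of 0.04. An unadjusted p under 0.05 was reached by 1 of them, Fkbp7, with a negative estimate. Hspa5, the major Hsp70 of this compartment, was at 839 ± 28.9 and 890 ± 41.3 CPM, and Hsp90b1, its Hsp90, had a log2 fold change of 0.02 ± 0.09.

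For procollagen export, 17 of 17 genes were tested and 0 passed, with 11 positive estimates and a median of 0.18. An unadjusted p under 0.05 was reached by 4 of them: Mia3, Kdelr2 and Surf4 with positive estimates, and Mbtps2 with a negative one. The most abundant were Mbtps1, the site-1 protease, and Lman1, a cargo receptor, with log2 fold changes of -0.03 ± 0.11 and -0.10 ± 0.11. Of other enzymes that use 2-oxoglutarate and iron, 16 of 17 were tested and 0 passed, with a median of -0.06. The HIF prolyl hydroxylases Egln2 and Egln3 were the 2 with an unadjusted p under 0.05. They had opposite signs, with log2 fold changes of 0.61 ± 0.19 and -1.17 ± 0.33. Tet3 and Tet1, which oxidise methylcytosine in DNA, were the most abundant, at 0.21 ± 0.12 and -0.02 ± 0.13. In contrast, 8 of 29 genes of glycolysis and hypoxia fell and 0 rose, with a median of -0.64. They were Pfkl, Pfkp, Aldoa, Aldoc, Tpi1, Ldha, Slc16a3 and Mif. DESeq2 called 0 of the genes in the enzyme, folding and export lists and 1 of the other 2-oxoglutarate enzymes (Egln3), and limma-voom called 0 in all 4.

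**Figure D5:**
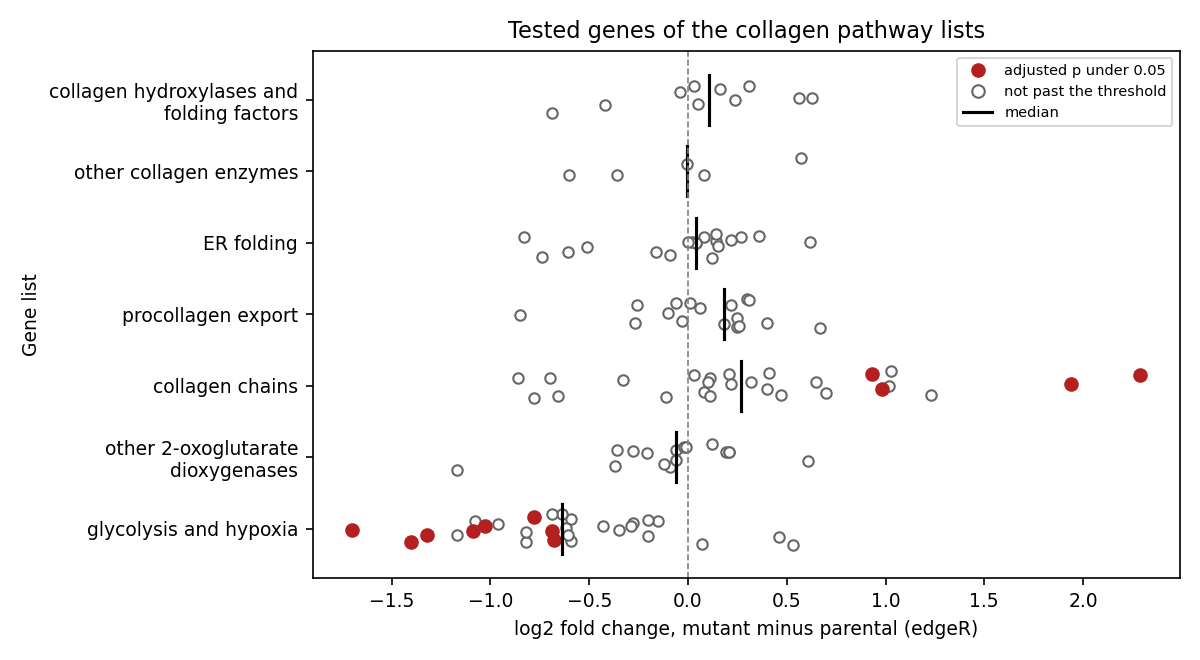
Log2 fold change (mutant minus parental, edgeR) of each tested gene in 7 lists; filled points passed an adjusted p of 0.05, open points did not, and black lines are medians. Calls lie among collagen chains, to the right of 0, and among glycolysis and hypoxia genes, to the left, with none among the 10 hydroxylases and folding factors.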

How the data were processed

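Polyadenylated RNA from 8 cultures was sequenced as QuantSeq 3′ libraries, per the labels' protocols. The authors deposited a table of raw counts in whole numbers, neither normalized nor pooled, for each gene. STAR, featureCounts and the build mm10 are named in the submitters' processing notes, without versions. The annotation release is not given in the sources used here. Identifiers were matched without version to GENCODE M21 (GRCm38), which gave 55227 of 55487 a symbol. Ero1a and Ero1b are Ero1l and Ero1lb there.

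Genes with low counts were removed with filterByExpr of edgeR 4.0.16 (R 4.3.3), which left 99.46% of counts. Lines were compared with glmQLFit and glmQLFTest on the line alone, after TMM scaling. Each SE is the fold change divided by the root of its F value. The script was tested on simulated data. Log2 CPM used a prior count of 2, and ratios an added count of 0.5.

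Groups and replicate numbers came from the sample titles. Numbers 1 to 4 occur in both lines, but no label ties same-numbered cultures together. The genes, lists, ratios and alternatives were chosen with earlier results of these data known. Named genes were Tbx1, the 10 genes, called genes of each list or its 2 most abundant, Col1a1, Col1a2, Col3a1, and the 2 most correlated genes per gene. Alternatives were RLE, upper-quartile and library-size scaling, other filters, DESeq2 1.42.0, limma-voom (limma 3.58.1), robust empirical Bayes, a replicate block and leaving out each library. No pair of libraries in a line agreed within sampling noise (chi-square per degree of freedom 7.25 to 26.4).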

Additional observations from a re-analysis of the deposited data

Results flagged for a closer look

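P4ha1 in mutant library 4, at 10.2 CPM, lay far below the other mutant libraries, which were at 31.6 to 34.7 CPM. The gap was 0.874 of the whole range of the 4 libraries, above Dixon's 95% critical value for 4 samples. Of 40 groups of 4 values examined this was the 1 that exceeded it, and chance gives about 1 in 20.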

How the results depend on the processing

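The count of 0 called among the 10 genes was the same under all 17 alternatives run. For the 6 ratios the count of 0 says little: the exact tests allow no p below 0.0286, so that at least 4 ratios at this limit would be needed after adjustment, and with the replicate block none below 0.125. Removing the low-count filter brought P4ha1 nearest to a call, with an edgeR adjusted p of 0.0603. Genes called over the whole table numbered 439 without the filter and 405 with DESeq2, against 188, and 103 to 235 when single libraries were left out. Without parental library 2 or 3, or mutant library 3, they were 103, 104 and 116. Scaling by library size alone gave 63.7% higher among the called genes, against 52.7%. Of the genes in the pathway lists 12 were called, 19 without the low-count filter and 9 to 15 when single libraries were left out.

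Signs of estimates near 0 changed. Plod1 was at -0.0022 with the replicate block and at -0.00076, -0.17 and -0.03 without parental library 1, mutant library 1 and mutant library 3, with a highest value of 0.19 when single libraries were left out. P3h1 was at -0.09, -0.04 and -0.05 without parental library 3, mutant library 1 and mutant library 3, and at most 0.12. Serpinh1 was at 0.03 and 0.0011 without parental library 1 and mutant library 1, and at -0.12 at its lowest. Colgalt1 ranged from -0.04, without mutant library 1, to 0.24. The Plod1/Plod3 difference ranged from -0.5 to 0.02, the latter without mutant library 4. The cause was not tested. Estimates of the other 6 genes kept their sign.

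Same-numbered libraries deviated from their line means with correlations of -0.0331 to 0.102. Their mean was 0.0283, against -0.00939 for libraries of other numbers. Such values cannot decide whether same-numbered cultures were handled together. With the replicate block 234 genes were called, against 188 without it, 13 of them in the pathway lists and 0 of the 10. At this depth Crtap, with 22 to 216 counts, had an interval that reaches 2.81 times the parental level.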

Other observations

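Ppib, which encodes cyclophilin B, the isomerase that works with P3h1 and Crtap, was looked at after its values were seen. It had 11, 15, 20 and 15 counts in parental libraries and 37, 27, 5 and 4 in mutant libraries, at most 6.22 CPM in any library and far under its partners. In the reference annotation Snx22 overlaps its 3′ end on the other strand, and Snx22 had 0 counts in every library. Whether the overlap has a part in these counts was not tested.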
